A study of Rattus norvegicus with 12 samples.

Results

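Bone RNA of ovariectomized (OVX) rats that had eaten a blueberry (BB) diet was compared with that of OVX rats that had not, with both feeding windows taken as 1 group. The members were the 6 BB OVX arrays and the 3 OVX arrays, 9 of the 12 arrays of the series, chosen by the diet and operation in their labels. All were female Sprague-Dawley rats at postnatal day (PND) 81, ovariectomized at PND 60 and sacrificed 3 weeks later. The OVX group ate the casein control diet. The LTBB OVX group (long term BB diet) ate the same kind of diet with 10% freeze-dried BB from PND 20 to PND 81, and the STBB OVX group (short term BB diet) ate it from PND 20 to PND 34 and the control diet thereafter, so that its last BB meal lay before surgery. Each group had 3 arrays, and every array carried the pooled RNA of 2 or 3 rats from a group of 8 or more. The remaining 3 arrays were of sham-operated rats on the control diet, which stand here as values beside the others and enter the alternative fit of all 4 groups. The bone is a femur in the labels but a right tibia in the methods.

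Ovariectomy removes the main source of estrogen, which restrains osteoclasts, the cells that resorb bone, and so speeds up bone turnover. Osteoblasts lay down the collagen matrix and mineralize it, osteocytes are osteoblasts that have become buried in it, and chondrocytes of the growth plate lengthen the bone. A long bone taken whole also brings marrow, vessels, fat and whatever skeletal muscle stays attached. The comparison asks which transcripts the BB diets moved in the OVX skeleton whichever window was fed. In RNA of a mixed tissue, fewer cells of a type and less RNA per cell cannot be told apart. A value below is a log2 value relative to the median of that probe set over the 12 arrays, so that 0 is an array in the middle and a difference of 1 is a change of 2-fold. Levels of different genes cannot be compared.

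The bone cell markers fixed for the check of the tissue were measured on these arrays, but their level is lost in centred values, so the tissue was checked by differences alone. The sham arrays stood apart from the other 9. Their root mean square distance to the OVX arrays was 0.825 to 0.909, against 0.169 to 0.269 between a BB OVX and an OVX array and 0.185 to 0.233 between OVX arrays. Relative to OVX, sham arrays were higher in the sarcomere list by a median of 5.10 and lower in the cartilage list (median -2.68), the collagen synthesis list (median -1.66) and the osteoblast list (median -1.35). The part of tissue composition in these differences was not tested.

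With both diets pooled, no transcript passed the test. Of 31042 probe sets 0 were called by limma at an adjusted p under 0.05, where the smallest adjusted p was 0.996. Of 14217 genes 0 were called (0% of the genes), where the smallest adjusted p was 0.994. At an unadjusted p under 0.05 there were 591 genes (4.16%), of which 228 were higher in BB OVX (1.60% of all genes) and 363 were lower (2.55%). Genes in which all 6 BB OVX pools lay above all 3 OVX pools numbered 92 (0.647%), and those in which all 6 lay below numbered 135 (0.950%). The share of 4.16% was no larger than chance alone gives at a p under 0.05. Some genes also separate 6 pools from 3 by chance, so these counts alone mark no gene as different. The median difference over all genes was -0.01, and 6591 genes (46.4%) lay above 0.

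The intervals of most genes were narrow. The 95% confidence interval of the difference had a median half-width of 0.146, and in 98.8% of genes (14045) the whole interval lay within 1.5-fold in either direction. Dim probe sets could not be filtered, so this share may include genes with little or no signal in bone, for which a narrow interval says little. A difference of at least 1.5-fold was found in 60 genes that were higher in BB OVX (0.422%) and in 0 that were lower (0%). Of those 60 genes 44 belonged to a set of 97 measured muscle genes. That set joined the sarcomere, muscle energy and muscle excitation lists with the genes that the study labelled as its myosin cluster. The study's cluster was chosen on these arrays, so the share is in part no independent evidence. The lists described next were read against these shares.

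Markers of the bone-forming and bone-resorbing cells had differences near 0 with narrow intervals. Alpl encodes tissue-nonspecific alkaline phosphatase, which frees phosphate for mineral. Alpl stood at 0.21, -0.02 and 0.08 in the OVX pools, at 0.02, 0.22 and -0.07 in the LTBB OVX pools and at 0.03, 0.15 and -0.06 in the STBB OVX pools. The groups overlapped, and the difference was -0.04 with a 95% confidence interval of -0.21 to 0.13. Bglap, the gene of osteocalcin, a protein of mineralized matrix, had a difference of 0.0022 with an interval of -0.09 to 0.10. Col1a1, the main collagen chain of bone, lay between -0.01 and 0.02 in every one of the 9 pools, with an interval of the difference from -0.08 to 0.08. Ibsp, a mineral-binding sialoprotein, differed by 0.05 (interval -0.05 to 0.14).

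Of 19 osteoblast genes measured 14 lay above 0 and 5 below. None of the 19 had an unadjusted p under 0.05 or separated the pools, and 18 of them had their interval within 1.5-fold, all but Tnn. The list's median difference was 0.01, and its extremes were Omd at 0.13 (osteomodulin, a small keratan sulphate proteoglycan of bone matrix) and Dlx5 at -0.06 (a homeobox factor of osteoblast differentiation). The osteocyte list had 9 genes measured, all with intervals within 1.5-fold. Dmp1, a phosphoprotein of osteocytes, and Sost, the gene of the Wnt inhibitor sclerostin, differed by 0.0023 and -0.05.

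The osteoclast list split evenly. Of 15 genes 7 lay above 0 and 8 below, and all 15 intervals were within 1.5-fold. Acp5, the tartrate-resistant acid phosphatase of osteoclasts, differed by -0.01 (interval -0.11 to 0.09), and Ctsk, the protease cathepsin K that digests bone collagen, by -0.03 (interval -0.14 to 0.07). Tnfsf11 encodes RANKL, the signal that osteoblasts and osteocytes send to osteoclast precursors. Its interval ran from -0.19 to 0.19. Tnfrsf11b encodes osteoprotegerin, the decoy receptor of RANKL, and here the interval was wide, from -0.31 to 0.58, with means of -0.12 in LTBB OVX and 0.38 in STBB OVX relative to OVX. Relb, a factor downstream of RANK, was lower by -0.20 at an unadjusted p of 0.0223.

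**Figure D1:**
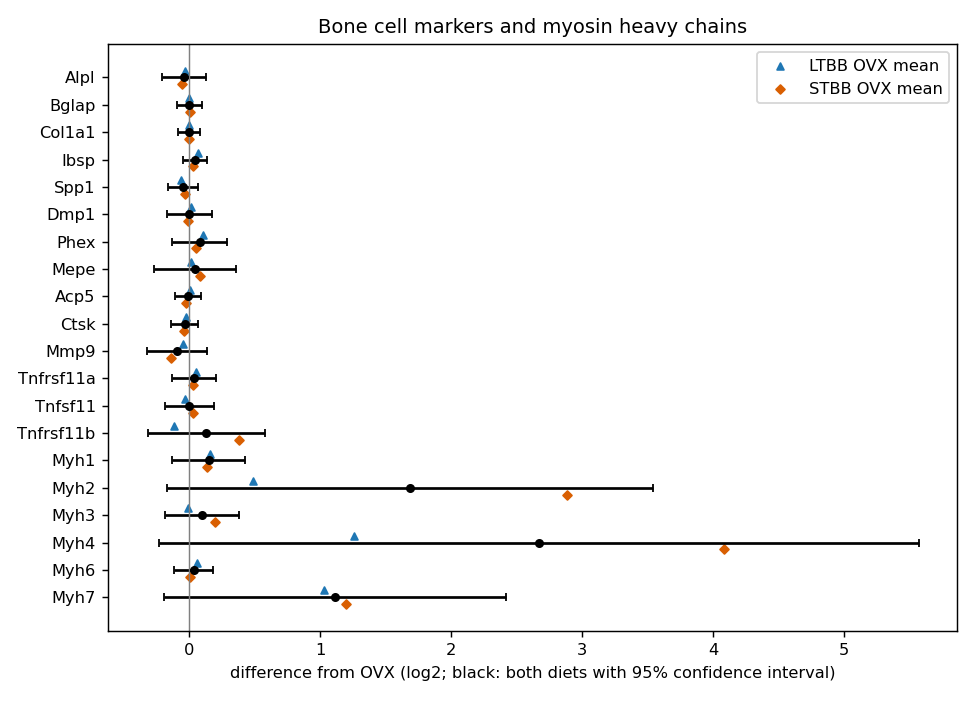
Difference from the OVX mean, in log2 units, for bone cell markers and myosin heavy chains. Black points are the mean of the 6 BB OVX pools with the 95% confidence interval of limma, triangles and diamonds the means of the 3 LTBB OVX and 3 STBB OVX pools. Bone markers such as Col1a1 and Acp5 lie near 0 with short intervals, while those of Myh4 and Myh2 run from below 0 to above 3.

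Collagen and matrix genes showed no common direction. Of 36 collagen synthesis genes 21 lay above 0 and 15 below, with a median of 0.01, and all 36 intervals lay within 1.5-fold. Col11a1, a minor fibrillar collagen, was the 1 gene of the list with an unadjusted p under 0.05 (0.0386), at a difference of 0.20. Of 29 matrix proteases and their inhibitors 14 lay above 0, and no unadjusted p was under 0.05. The 32 measured genes that the study itself labelled as its collagen turnover cluster, which were chosen on these arrays and are no independent evidence of a direction, had a median of 0.06 with 25 above 0.

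The cartilage list divided by diet. Its 20 measured genes had a median of 0.07 over both diets, but of -0.11 for the long window and 0.31 for the short one, both against the same 3 OVX arrays. The list mean was 0.23, -0.10 and 0.06 in the OVX pools, -0.08, 0.02 and -0.08 in the LTBB OVX pools, and 0.59, 0.27 and 0.17 in the STBB OVX pools. All 3 LTBB OVX pools lay within the range of the OVX pools, and 2 of the 3 STBB OVX pools lay above it. Without OVX pool 2 the median over both diets was -0.04. In the direct comparison of the diets 0 genes of the whole table were called (0%), and 761 had an unadjusted p under 0.05 (5.35%). In the cartilage list they numbered 13 of 20, in the muscle energy list 17 of 25, in the sarcomere list 21 of 45 and in the muscle excitation list 8 of 26. Acan, the proteoglycan aggrecan, lay at 0.68, 0.47 and 0.24 in the STBB OVX pools and at -0.14, 0.14 and -0.27 in the LTBB OVX pools.

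The largest differences lay in skeletal muscle genes, which also varied widely between the pools of a diet. Sarcomeres are the contractile units of striated muscle, built of myosin and actin filaments with their regulators. Of 45 sarcomere genes 44 lay above 0, with a median of 0.86 (all genes: -0.01). At an unadjusted p under 0.05 there were 12, all higher, and the pools did not overlap in 1, Mylk2, the skeletal muscle kinase of myosin light chains, named after its values were seen. Their median was 0.45 in LTBB OVX and 1.20 in STBB OVX. The median half-width of the intervals in this list was 0.965, against 0.146 over all genes, and 8 of the 45 had an interval within 1.5-fold.

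The list mean shows how the pools fell. It was -1.30, -0.79 and -1.51 in the OVX pools. It was -1.07, -1.53 and 0.44 in the LTBB OVX pools and -0.14, 0.46 and 0.41 in the STBB OVX pools, while sham arrays lay between 3.17 and 3.86. LTBB OVX pools 1 and 2 thus lay among or next to the OVX pools, and LTBB OVX pool 3 lay with the STBB OVX pools. Without LTBB OVX pool 3 the median of the list was 0.69, and without LTBB OVX pool 2 it was 1.11.

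**Figure D2:**
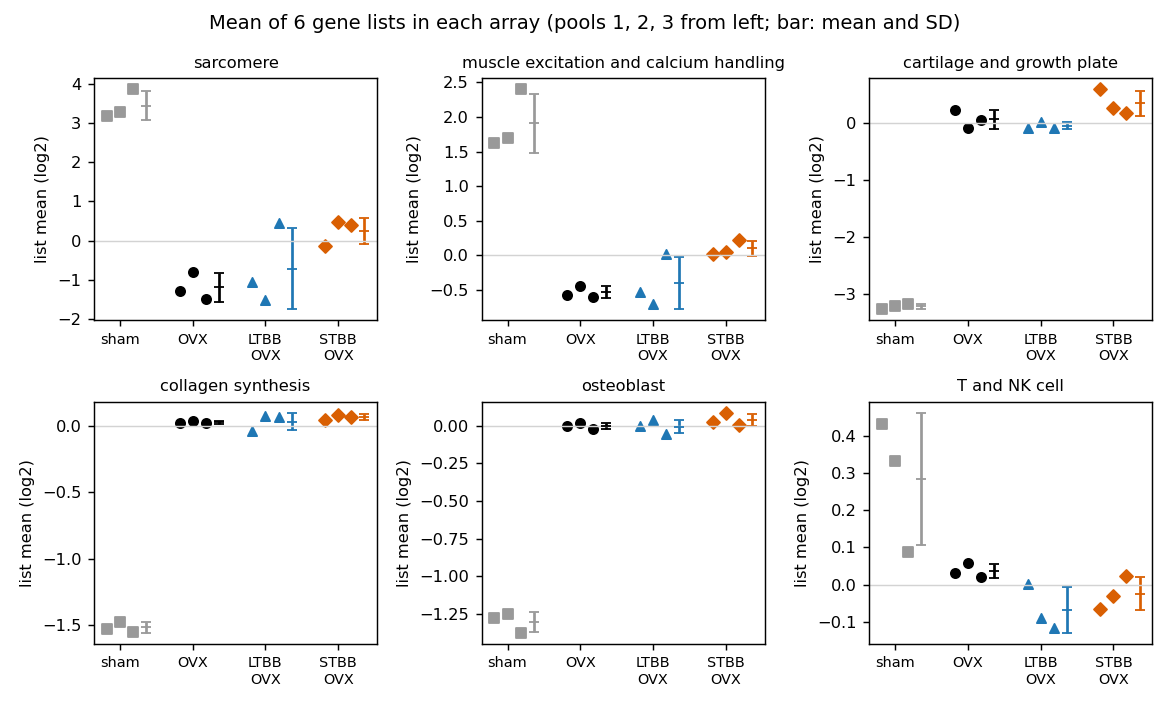
Mean of the genes of 6 lists in each of the 12 arrays, in log2 units relative to the median of the arrays, with the mean and SD of each group at its right. In the sarcomere panel LTBB OVX pools 1 and 2 lie at -1.07 and -1.53, beside the OVX pools, and LTBB OVX pool 3 at 0.44. In the osteoblast panel all OVX and BB OVX pools lie between -0.05 and 0.08.

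Myh4 encodes the fastest myosin heavy chain of the rat. It stood at -4.77, -1.65 and -5.26 in the OVX pools, at -2.85, -5.47 and 0.43 in the LTBB OVX pools and at 0.36, -0.36 and 0.57 in the STBB OVX pools. The pools of OVX and LTBB OVX overlapped. The pooled difference was 2.67 with an interval of -0.23 to 5.57 (unadjusted p = 0.0674).

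Of the other myosin heavy chains measured by RT-PCR in the study, Myh2 and Myh7 had wide intervals and Myh1, Myh3 and Myh6 narrower ones. The intervals of Myh1 and Myh3 were still wider than those of most genes, whose median half-width was 0.146. Myh2, of fast oxidative fibres, differed by 1.69 with an interval of -0.17 to 3.54. Myh7, the slow and cardiac chain, differed by 1.11 as the mean of 2 probe sets with an interval of -0.19 to 2.42, and its first probe set alone gave 0.08. Myh1 differed by 0.15 as the mean of 5 probe sets (interval -0.13 to 0.42), and the embryonic Myh3 by 0.10 (interval -0.18 to 0.38). The cardiac Myh6 differed by 0.03 as the mean of 2 probe sets (interval -0.12 to 0.18). All 3 intervals lay within 1.5-fold. In Myh1 the sham arrays were higher than OVX by 0.26 alone, against 6.38 in Myh4 and 8.07 in Myh2. All 31 measured genes that the study labelled as its myosin cluster lay above 0, with a median of 1.11, and 9 had an unadjusted p under 0.05. That cluster was chosen on these arrays and so is no independent evidence of its direction.

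Energy and calcium genes of muscle lay on the same side. Of 25 muscle energy genes 22 lay above 0 with a median of 0.22 (0.07 with LTBB and 0.40 with STBB), and 4 had an unadjusted p under 0.05 (Ckmt2, Pgam2, Cox6a2 and Cox8b). Ckm, the muscle creatine kinase, differed by 2.10 (unadjusted p = 0.0569). Among the 26 genes for exciting muscle and handling its calcium, 22 lay above 0 with a median of 0.24 (0.03 with LTBB and 0.28 with STBB), and 9 had an unadjusted p under 0.05. Atp2a1, the calcium pump of fast muscle, stood at -2.64, -1.38 and -3.02 in the OVX pools, at -1.77, -2.39 and -0.09 in the LTBB OVX pools and at 0.15, 0.09 and 0.54 in the STBB OVX pools, a difference of 1.76 at an unadjusted p of 0.0176. Casq2, a calcium-binding protein of the sarcoplasmic reticulum, was the 1 gene of this list whose pools did not overlap, at a difference of 0.23.

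Non-muscle actin and myosin genes serve the shape and movement of every cell. Of 32 measured 12 lay above 0 and 20 below, with a median of -0.03, and all 32 intervals were within 1.5-fold.

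**Figure D3:**
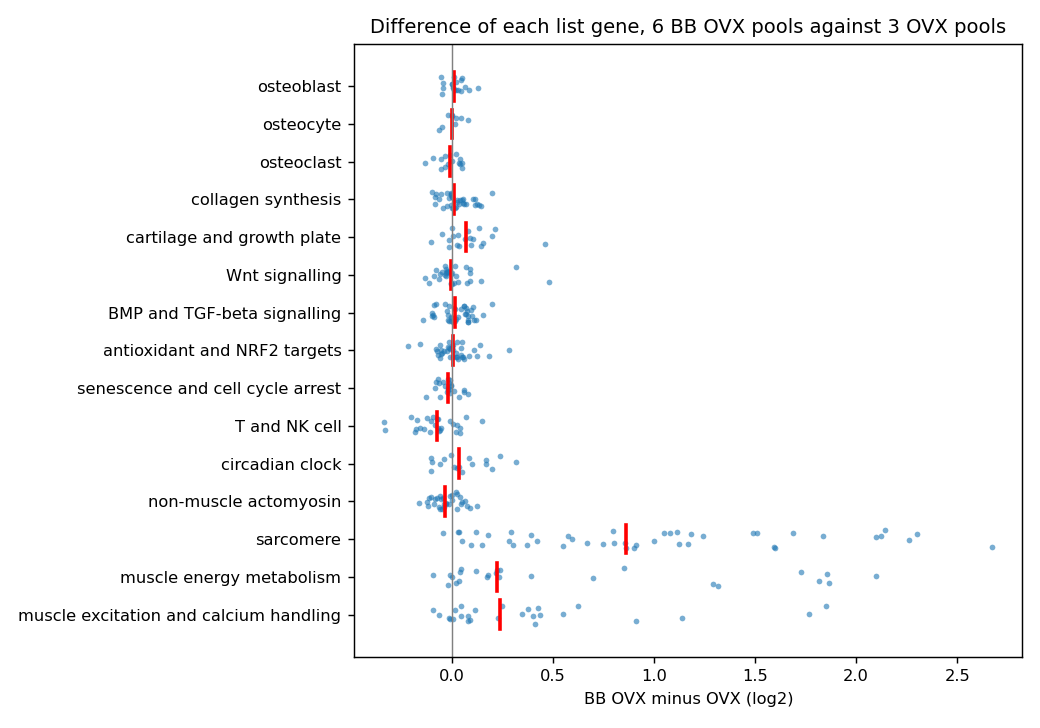
Difference of each gene between the 6 BB OVX pools and the 3 OVX pools, in log2 units, for 15 of the lists. Each point is a gene and each red bar a list median. The 3 muscle lists spread to the right up to 2.67 (Myh4), and the other medians lie between -0.08 (T and NK cell) and 0.07 (cartilage).

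Among the genes whose pools did not overlap, the named ones were chosen by the smaller of the 2 diets' differences from OVX, 12 in each direction, so that both windows had to move. Their separation was the ground of their choice, and none was called. Of the 12 higher genes 4 are known from striated muscle: Hhatl, Mrln, Popdc3 and Lrrc39. Hhatl is a membrane protein of the sarcoplasmic reticulum, and Mrln encodes myoregulin, a micropeptide that inhibits the muscle calcium pump. The upstream sequences of Hhatl, Mrln and Lrrc39 are shown since muscle-specific factors of the MyoD family bind E-boxes. Each is the 250 bases before the RefSeq start in GRCr8, 5′ to 3′ on the gene's strand, with E-boxes (CANNTG, which reads the same on both strands) in capitals. Hhatl lies at chr8:130331510-130331759 on the minus strand, Mrln at chr20:18420879-18421128 on the minus strand and Lrrc39 at chr2:207200789-207201038 on the plus strand.
Hhatl: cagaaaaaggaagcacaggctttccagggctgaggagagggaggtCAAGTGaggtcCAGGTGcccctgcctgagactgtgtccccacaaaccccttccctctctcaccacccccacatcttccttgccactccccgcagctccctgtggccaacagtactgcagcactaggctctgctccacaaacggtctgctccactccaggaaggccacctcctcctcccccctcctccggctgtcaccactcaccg
Mrln: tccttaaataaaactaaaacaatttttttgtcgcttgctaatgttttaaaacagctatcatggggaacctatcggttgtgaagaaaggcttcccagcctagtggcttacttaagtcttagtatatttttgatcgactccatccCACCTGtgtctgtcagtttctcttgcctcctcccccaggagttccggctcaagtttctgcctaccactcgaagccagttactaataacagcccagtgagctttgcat
Lrrc39: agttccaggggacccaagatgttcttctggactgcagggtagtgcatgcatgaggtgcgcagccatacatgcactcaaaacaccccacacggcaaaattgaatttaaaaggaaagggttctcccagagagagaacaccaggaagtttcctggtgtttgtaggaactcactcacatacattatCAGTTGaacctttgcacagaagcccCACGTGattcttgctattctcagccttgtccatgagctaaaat
Hhatl and Lrrc39 hold 2 E-boxes and Mrln holds 1 in this window, as does Popdc3, whose sequence is not printed. Of 33469 RefSeq promoters 65.5% hold at least 1 in 250 bases, so a match is a description and no mark of these genes.

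Hhatl had the largest difference of the 4. It stood at -0.86, -0.87 and -1.18 in the OVX pools, at -0.37, -0.73 and 0.34 in the LTBB OVX pools and at 0.02, -0.02 and 0.53 in the STBB OVX pools. Every BB OVX pool lay above every OVX pool, with LTBB OVX pool 2 closest to them. The difference was 0.93 (SE 0.231, unadjusted p = 0.00205), and it was 0.47 with the sarcomere list mean as a covariate. Mrln, whose upstream sequence is printed above, differed by 0.55, with 0.38 in LTBB OVX and 0.71 in STBB OVX. Popdc3, a membrane protein of heart and skeletal muscle, differed by 0.41, and Lrrc39, a protein of the sarcomere's M-band, by 0.35. All 4 were higher in sham arrays than in OVX arrays by 3.25 to 4.38.

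The other 8 higher genes were closer to OVX in the sham arrays, at sham differences of -0.79 (Kcnj8) to 0.52 (Zan). Slc35g2, a member of a nucleotide sugar transporter family, stood at -0.04, -0.18 and -0.09 in the OVX pools, at 0.35, 0.28 and 0.32 in the LTBB OVX pools and at 0.34, 0.29 and 0.04 in the STBB OVX pools. It had the smallest unadjusted p of all genes, 0.000305, at a difference of 0.37. Mt1 encodes metallothionein, which binds zinc and copper and is induced by metals and oxidative stress. It stood at -0.03, -0.05 and -0.40 in the OVX pools and differed by 0.28, of which 0.17 was left without OVX pool 3. Nr1d2 encodes REV-ERB beta, a repressor of the circadian clock, and differed by 0.24 (unadjusted p = 0.00108), with 0.25 in LTBB OVX and 0.23 in STBB OVX. Its partner Nr1d1 differed by 0.32 (unadjusted p = 0.0141), but its pools overlapped. Nr1d1 stood at 0.01, -0.51 and -0.43 in the OVX pools, and its BB OVX pools ran from -0.17 to 0.20. Of 17 clock genes 11 lay above 0, with a median of 0.04. Tekt4 (0.38), Olr1271 (0.26), Zan (0.27), Cfap410 (0.28) and Kcnj8, a potassium channel subunit of vessel smooth muscle (0.24), complete the 12. Olr1271 stood at -0.51 in OVX pool 2, and without that pool its difference was 0.10.

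**Figure D4:**
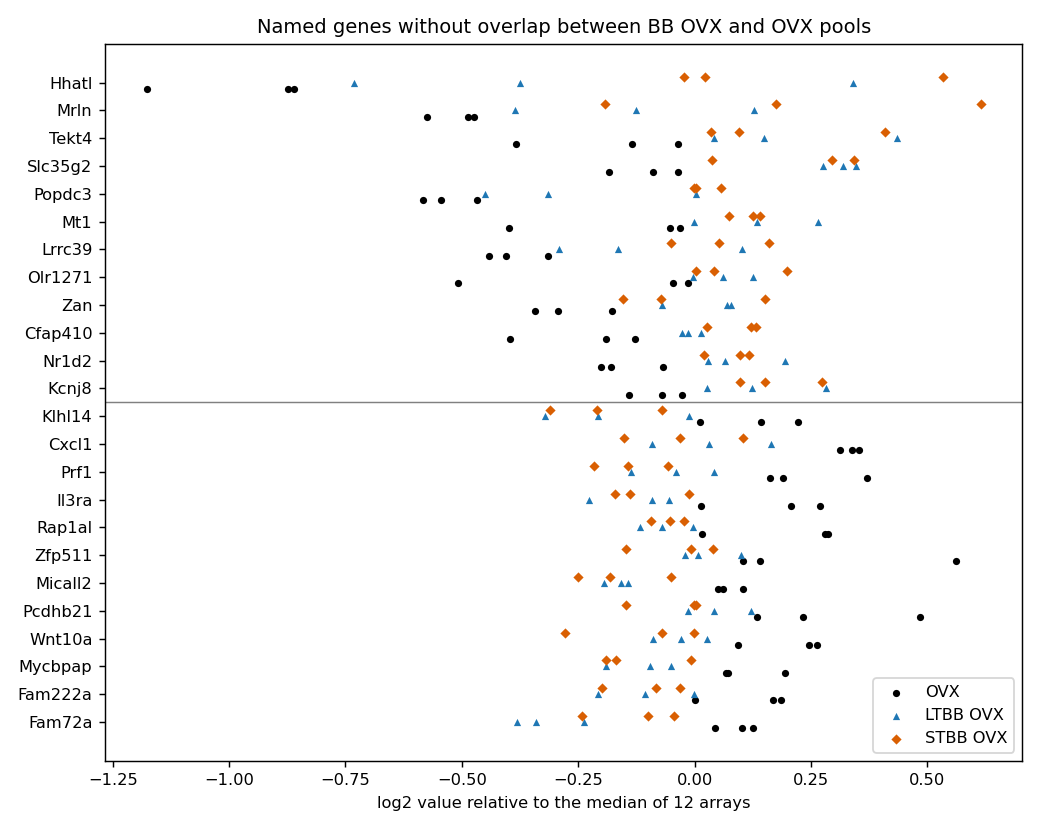
Log2 values of the 24 named genes in the 3 OVX, 3 LTBB OVX and 3 STBB OVX pools, 12 higher genes over 12 lower ones. The groups do not overlap in any gene, which was the ground for choosing them. The highest value is 0.61 (Mrln) and the lowest -1.18 (Hhatl).

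Of the 12 lower genes Cxcl1 and Prf1 had the largest differences. Cxcl1, a chemokine that draws neutrophils, had OVX pools close together at 0.35, 0.34 and 0.31, LTBB OVX pools at 0.03, 0.16 and -0.09 and STBB OVX pools at -0.15, -0.03 and 0.10. Each BB OVX pool lay below each OVX pool, and the difference was -0.33 (unadjusted p = 0.000585). Prf1 encodes perforin, the pore-forming protein of cytotoxic T and NK cells. It stood at 0.16, 0.37 and 0.19 in the OVX pools, at 0.04, -0.14 and -0.04 in the LTBB OVX pools and at -0.22, -0.14 and -0.06 in the STBB OVX pools, a difference of -0.33 (unadjusted p = 0.000466). Il3ra, a subunit of the interleukin 3 receptor, differed by -0.28, and Klhl14 by -0.31. Wnt10a, a Wnt ligand, differed by -0.27, against 32 Wnt genes of which 14 lay above 0 and 18 below. Rap1al, Zfp511, Micall2, Pcdhb21, Mycbpap, Fam222a and Fam72a differed by -0.32 to -0.22. Without OVX pool 2 the difference of Zfp511 was -0.13, and without OVX pool 1 that of Pcdhb21 was -0.18.

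Prf1 belongs to the list of T and NK cell markers. Of its 27 genes 20 lay below 0 and 7 above, with a median of -0.08, and 7 had an unadjusted p under 0.05, all lower, against 2.55% of all genes. The list held 3 genes whose pools did not overlap, all lower, against 0.950% of all genes. They were Prf1, Lck and Klrb1a, which are a cytotoxic effector, the kinase of the T cell receptor and an NK cell receptor. The means of the whole list did overlap: STBB OVX pool 3 lay at 0.0239 and the OVX pools between 0.0201 and 0.0575. Lck stood at 0.07, 0.15 and 0.07 in the OVX pools, at 0.05, -0.12 and -0.05 in the LTBB OVX pools and at -0.16, -0.13 and -0.09 in the STBB OVX pools. Cd3e (-0.17) and Cd3g (-0.33), chains of the T cell receptor complex, had unadjusted p of 0.0391 and 0.0302. Cd3g stood at 0.06, 0.70 and 0.03 in the OVX pools, so that OVX pool 2 lay far above the others. Its value in LTBB OVX pool 1 was 0.14, above OVX pools 1 and 3. Nkg7 (-0.08) and Cd8a (-0.11) had intervals that held 0. The median of the list ran from -0.11 (without OVX pool 3) to -0.04 (without OVX pool 2) when single pools were left out.

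Markers of the other cells that a long bone brings along had medians between -0.08 and 0.03. Of 23 adipocyte genes 17 lay below 0, with a median of -0.08 that was -0.12 without OVX pool 1 and -0.03 without OVX pool 3. In it Adipoq, the fat cell hormone adiponectin, differed by -0.29 (interval -0.69 to 0.11), with means of -0.42 in LTBB OVX and -0.16 in STBB OVX. In Adipoq, LTBB OVX pool 1 and STBB OVX pools 1 and 2 lay within the range of the OVX pools. Cebpa, a factor of fat cell and granulocyte differentiation, differed by -0.20 (unadjusted p = 0.0219). Gpd1 lay on the other side at 0.17 (interval -0.07 to 0.42). Of 14 B cell genes 10 lay below 0, with a median of -0.06, and of 20 macrophage genes 16, with a median of -0.04. No gene of the B cell, macrophage, megakaryocyte, neutrophil or endothelium lists had an unadjusted p under 0.05. The 22 erythroid genes split into 11 above and 11 below 0, and the 18 neutrophil genes into 11 and 7.

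Among 39 antioxidant genes 22 lay above 0 with a median of 0.01, with Mt1 highest and Slc7a11, a cystine transporter, lowest at -0.22. Of 19 aryl hydrocarbon and xenobiotic genes 16 lay below 0, against 53.6% of all genes, with a median of -0.09 that was -0.05 without OVX pool 1, and the receptor itself, Ahr, lay at 0.16 (unadjusted p = 0.049). Of 23 senescence genes 18 lay below 0, none with an unadjusted p under 0.05, and the median was -0.02. Cdkn2a, which encodes the cell cycle inhibitor p16, differed by -0.08 (interval -0.31 to 0.14) and its neighbour Cdkn2b by -0.12 (interval -0.30 to 0.05). Gadd45g of the same list lay on the other side at 0.08 (interval -0.05 to 0.21). Of 38 proliferation genes 27 lay below 0, with a median of -0.03 that was 0.01 with LTBB and -0.08 with STBB. In the direct comparison of the diets 7 of the 38 had an unadjusted p under 0.05, against 5.35% of all genes.

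Among signalling genes Wnt5a, a ligand of non-canonical Wnt signalling, differed by 0.32 (unadjusted p = 0.0026), with pools that overlapped. Tgfbi, a matrix protein induced by TGF-beta, was 0.20 higher without overlap, and Igfbp1, a binding protein of insulin-like growth factors, was lower by -0.23 without overlap. In the steroid and vitamin D list Hsd11b1, which reactivates glucocorticoids, differed by -0.24 and the retinoic acid receptor Rara by -0.16 without overlap, while Esr1, the estrogen receptor alpha, had an interval of -0.12 to 0.32.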

How the data were processed

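RNA of pooled long bone was hybridized by the authors to Affymetrix rat arrays, 3 per group. The deposited log2 values came from robust multiarray analysis, followed in GeneSpring by normalization to each chip and each gene, as the methods state. GCOS and RMA are named in the submitters' processing notes, without versions. In the table every probe set is centred on 0 across the 12 arrays, so levels are lost and dim probe sets cannot be filtered.

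Of 31099 probe sets 57 controls were left out. GEO's platform annotation gave 1 symbol to 20826 of the 31042 others, several to 436 and none to 9780; 20758 symbols were updated by gene ID through RefSeq genes of GRCr8, used for names alone. A gene's value was the mean of its probe sets with 1 symbol (14217 genes, 4525 with several). Runx2 and Ppia were not analysed here. Promoter sequences are RefSeq's.

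Differences were fitted with limma 3.58.1 in R 4.3.3 as 2 group means (6 BB OVX, 3 OVX arrays), using eBayes and Benjamini-Hochberg adjusted p at 0.05, and STBB OVX against LTBB OVX with 3 group means. SE is limma's. All genes and probe sets were tested, and the script was tested on simulated data. The 40 gene lists and the named genes were chosen with earlier results of these data known, so lists are described by counts and medians beside those of all genes, with no test. Named genes were the 12 per direction without overlap between pools with the largest smaller difference of both diets (uncharacterized symbols left out), the RT-PCR genes and up to 4 members per list with the largest differences; other markers were named after their values were seen. LTBB OVX and STBB OVX share their OVX arrays. A p-value here reflects how far pools spread around the means of the fit. For BB OVX against OVX the 6 BB OVX pools share 1 mean, so a difference between the diets counts as spread and widens the intervals. Precision is limited by having 3 arrays per group (SD within each group 0.145 for OVX, 0.149 for LTBB OVX, 0.136 for STBB OVX). Alternatives changed the model, normalization, weights, probe set rule, filter, a replicate block, a sarcomere covariate and each pool left out. Plots used matplotlib 3.10.9 (Python 3.11.15).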

Additional observations from a re-analysis of the deposited data

Results flagged for a closer look

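Of 72 list means and named genes checked in the 6 BB OVX pools, 4 had a single pool far from the other 5 by Dixon's criterion, where chance gives about 1 in 20. The mean of the collagen synthesis list was lowest in LTBB OVX pool 1 (-0.0426), with the other BB OVX pools up to 0.08. The mean of the non-muscle actomyosin list was lowest in LTBB OVX pool 3 (-0.0635), the LTBB OVX pool with the highest sarcomere mean. Slc35g2 was lowest in STBB OVX pool 3 (0.0364), and its difference from OVX was 0.42 without that pool. Myh3 was highest in STBB OVX pool 3 (0.509), and its difference was 0.00103 without that pool. The causes were not tested.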

How the results depend on the processing

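No probe set or gene was called between BB OVX and OVX under any alternative run, with 0 also under the replicate block, which gave 512 genes with an unadjusted p under 0.05 against 591. Pool numbers did not pair the samples (correlations of same-numbered pools from -0.279 to 0.0483). The 591 genes were 342 with sham arrays in the fit, 1165 with array weights and 337 among the more variable probe sets (SD over the arrays above its median), and 449 to 1245 when single pools were left out, the highest without OVX pool 2. The genes with all BB OVX pools above all OVX pools numbered 58 among the more variable probe sets and 143 to 664 without single pools, and the genes with all BB OVX pools below all OVX pools 81 and 177 to 904, both highest without OVX pool 2. With a pool left out fewer pools have to separate, so these counts can stay or rise but cannot fall. Their rise is thus no sign of what a single pool does. STBB OVX against LTBB OVX gave 0 to 46 called genes, 46 without LTBB OVX pool 3. With the sarcomere covariate Alpl was 0.0411. Myh3 was -0.052 and Myh4 -0.0421 under it, but both are members of the sarcomere list, so the covariate holds their own values, and for Myh4 (2.67 without it) the difference is lost at least in part by construction. Differences near 0 also changed sign: with array weights Bglap was -0.00296. Without single pools Alpl ran from -0.0999 to 0.0183, Bglap from -0.00856 to 0.013, Myh1 from -0.00406 to 0.283 and Myh6 from -0.0315 to 0.102. The causes were not tested. The sarcomere median was 0.609 to 0.913 under the other settings.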
